A study of Mus musculus with 6 samples.

Results

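The transcripts described here encode 8 surface proteins that are used to sort or stain stem-like fibroblasts: CD34, SCA-1 (Ly6a), LY6C1, CD55, THY1, the endothelial protein C receptor (Procr), endosialin (Cd248) and podoplanin (Pdpn). They were taken by gene symbol from a table of 27179 genes. All 8 passed the filter on low counts and were among the 14855 genes tested. The comparison was between CD34- and CD34+ cancer-associated fibroblasts (CAFs) sorted from the same 3 mammary tumors, with 3 libraries in each group.

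The tumors arose in female raGFP-Wnt1 mice, which carry an MMTV-Wnt1 transgene from the FVB/NJ strain and 1 copy of a Pdgfra-H2B-GFP knock-in on a C57BL/6 background. Both groups therefore share the Wnt1 transgene, whose MMTV promoter is active mainly in mammary epithelium, and the GFP reporter of the fibroblast receptor Pdgfra. Flow cytometry divided the untreated GFP+ CAFs of each tumor by surface CD34, and their poly(A) RNA was sequenced. The ages of the mice were not given in the sources used here.

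In adipose tissue, skin and mammary gland, fibroblasts with high CD34 and SCA-1 lie in the adventitia and interstitium and are widely regarded as a progenitor-like reserve. Many of the markers used for them are not enzymes or growth factor receptors. SCA-1, LY6C1, CD55 and THY1 are held in the outer membrane leaflet by a glycosylphosphatidylinositol (GPI) anchor, whereas CD34, PROCR, endosialin and podoplanin span the membrane. Several are shared with other cells, since CD34, SCA-1, LY6C1 and PROCR also mark endothelial cells and THY1 marks T cells.

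Total counts per library ranged from 16238059 to 86609267, so that even Procr, the least abundant member, rested on 396 to 3263 reads. The CD34- library of tumor 3 stood apart, with 14314 genes detected against 16253 to 19220 in the others. It had a count of 0 for 159 genes that averaged at least 2 CPM (read counts scaled to a common library size) in the other libraries, against 1 to 31 genes for the rest. Members' fold changes are given with and without tumor 3, as are changed calls in the related lists and some changed levels.

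Cd34 itself, a sialomucin, was the transcript of the protein used for sorting, and it checks the labels. In TMM-scaled CPM, the CD34- libraries of tumors 1 to 3 held 79.2, 42.0 and 102 and the CD34+ libraries 678, 563 and 1605. The lowest CD34+ library was 5.53 times the highest CD34- library, so every library followed its label. By limma-voom, Cd34 was lower in CD34- CAFs by a log2 fold change of -3.63 ± 0.44 (SE, n = 3 per group, adjusted p = 0.0414). With edgeR the adjusted p was 0.0643, and leaving out any 1 library other than the CD34+ library of tumor 1 raised it by limma to 0.0517 or above. With the tumor as a block, Cd34 was called at -3.60 ± 0.17 (SE, limma adjusted p = 3.61e-05). In bulk samples such as these, fewer cells with a transcript and less of it per cell cannot be told apart.

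The other 7 members fell into 3 kinds of pattern. Cd55, Ly6c1, Ly6a and Procr were lower in all 3 CD34- libraries than in any CD34+ library. Cd248 was lower in each tumor but with overlapping groups. For Thy1 and Pdpn the groups also overlapped, and the direction differed between tumors. With Cd34, 5 of 8 members had groups that did not overlap in this direction, against 10.0% of all genes tested. With Cd34, 6 of 8 were lower in 3 of 3 tumors, against 23.4%. Cd34 adds no information to either count, because its direction was set by the sort.

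The call depended on whether the tumor entered the fit. Without a tumor term, limma-voom called 1 of 8 members lower, against 0.101% of all genes. That 1 was Cd34, whose direction was set by the sort, and no other member was called in this fit. Cd34 is also included in the counts and medians that follow. With the tumor as a block, which pairs the libraries of 1 tumor, it called 6 of 8 lower, against 4.25%, and none higher. The members' median log2 fold change was -1.45 without and -1.47 with the block, against -0.03 and -0.01 for all tested genes. The 2 fits therefore differed in their errors more than in their estimates. With the block, edgeR called 5 of 8 members lower, against 2.11%, and DESeq2 called 6, against 6.52%. Without the block, DESeq2 called 5, against 3.01%.

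**Figure D1:**
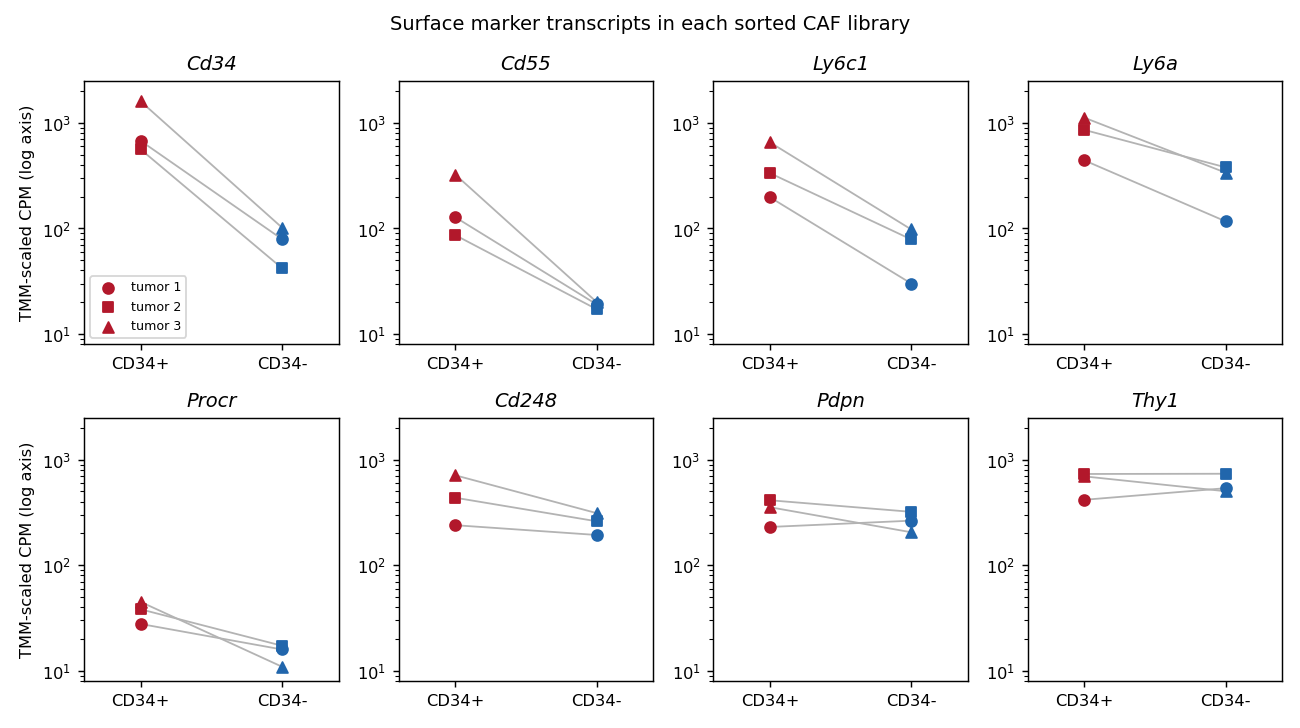
TMM-scaled CPM (log axis) of each member in the CD34+ (red) and CD34- (blue) library of each tumor, with a line joining the libraries of 1 tumor. All 3 lines fall for Cd34, Cd55, Ly6c1, Ly6a, Procr and Cd248, whereas those of Pdpn and Thy1 cross.

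The promoters of the members that separated the groups are shown first, beside that of Pdpn, which did not, and those of 2 related genes with shared sequence, Ly6c2 and Cd55b. RefSeq sequences (GRCm38.p6) were found for 5 of the 8 members; Ly6a, Thy1 and Cd248 had no entry. Each run holds the 250 bases before an annotated transcript start, 5′ to 3′ on the gene's strand. Other transcripts of a gene may start inside it or before it. By the outer bounds of the genes, the Cd55 window lies wholly inside its gene. Those of Cd55b, Ly6c1, Ly6c2 and Procr run into theirs, and only those of Cd34 and Pdpn lie wholly outside. Capitals mark matches on either strand to the TATA box (letters TATAAA), the CCAAT box, the GC box (letters GGGCGG), the CACCC box, the AP-1 site (letters TGANTCA), the E-box (letters CACGTG) or the TEAD site (letters GGAATG). The windows are chr1:194938571-194938820 (plus strand), chr1:130462745-130462994 (minus strand), chr1:130423044-130423293 (minus strand), chr15:75048838-75049087 (minus strand), chr15:75111972-75112221 (minus strand), chr2:155750967-155751216 (plus strand) and chr4:143299565-143299814 (minus strand).
Cd34: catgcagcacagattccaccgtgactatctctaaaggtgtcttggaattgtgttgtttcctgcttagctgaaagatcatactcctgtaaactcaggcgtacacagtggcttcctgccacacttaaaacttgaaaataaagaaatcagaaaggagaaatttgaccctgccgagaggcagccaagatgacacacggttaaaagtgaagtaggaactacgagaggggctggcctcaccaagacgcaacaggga
Cd55: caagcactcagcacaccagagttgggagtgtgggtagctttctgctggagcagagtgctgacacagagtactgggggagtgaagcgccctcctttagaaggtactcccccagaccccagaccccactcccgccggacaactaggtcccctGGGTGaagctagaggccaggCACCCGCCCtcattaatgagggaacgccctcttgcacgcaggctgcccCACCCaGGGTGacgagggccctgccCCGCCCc
Cd55b: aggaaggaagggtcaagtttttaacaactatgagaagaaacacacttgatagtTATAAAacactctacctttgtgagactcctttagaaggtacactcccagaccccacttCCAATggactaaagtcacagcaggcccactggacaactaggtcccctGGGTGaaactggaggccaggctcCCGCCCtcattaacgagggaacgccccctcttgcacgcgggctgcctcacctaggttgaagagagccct
Ly6c1: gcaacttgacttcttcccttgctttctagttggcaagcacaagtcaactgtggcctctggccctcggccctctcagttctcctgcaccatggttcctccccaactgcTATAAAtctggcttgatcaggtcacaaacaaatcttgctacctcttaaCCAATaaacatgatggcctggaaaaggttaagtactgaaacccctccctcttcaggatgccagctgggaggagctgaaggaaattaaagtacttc
Ly6c2: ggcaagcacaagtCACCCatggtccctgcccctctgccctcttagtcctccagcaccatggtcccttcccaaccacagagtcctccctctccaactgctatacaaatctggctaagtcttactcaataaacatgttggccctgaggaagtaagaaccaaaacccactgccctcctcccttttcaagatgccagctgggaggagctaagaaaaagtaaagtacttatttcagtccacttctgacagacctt
Procr: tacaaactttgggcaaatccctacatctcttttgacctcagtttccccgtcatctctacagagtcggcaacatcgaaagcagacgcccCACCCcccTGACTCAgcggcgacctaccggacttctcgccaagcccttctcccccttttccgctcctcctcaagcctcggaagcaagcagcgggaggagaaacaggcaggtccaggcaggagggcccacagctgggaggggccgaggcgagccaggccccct
Pdpn: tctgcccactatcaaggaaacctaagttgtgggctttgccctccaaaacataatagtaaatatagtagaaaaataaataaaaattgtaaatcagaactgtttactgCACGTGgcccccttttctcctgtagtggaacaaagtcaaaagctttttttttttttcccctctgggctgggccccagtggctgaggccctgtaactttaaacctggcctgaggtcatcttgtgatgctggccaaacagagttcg

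The motif matches differed between windows. The Cd34 window held none of the 7 motifs. Cd55 held 2 GC boxes (GGGCGG is in 32.7% of 32851 promoter windows of this length) and 4 CACCC matches (52.0%), of which 1 of each overlapped. TATAAA (12.4%) and CCAAT (33.8%) were in Ly6c1, the AP-1 letters (6.75%) with CACCC in Procr, and the E-box (6.02%) in Pdpn. Cd55b held the TATA box, the GC box, the CACCC box and the box of the letters CCAAT, and Ly6c2 held the CACCC box, which was thus in 4 of the 7 windows. No window held GGAATG (12.6%). The copies aligned with their partners over a longer stretch. Of 210 aligned bases, 170 were identical between Ly6c1 and Ly6c2, and 174 of 210 between Cd55 and Cd55b. The other 19 pairs had 14 to 141 identical bases over 17 to 196 aligned bases. By percent identity the copies (81.0 and 82.9) were not set apart, since Cd55 with Ly6c2 reached 87.5 over 32 bases. Even so, the TATAAA and CCAAT of Ly6c1 were not in the Ly6c2 window.

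CD55, or decay-accelerating factor, protects cells from their own complement by speeding the decay of C3 convertases. Its gene (chromosome 1, 130429798 to 130465009, GRCm38.p6) showed the steepest difference of the 8 members after Cd34. The CD34- libraries held 19.1, 17.2 and 20.1 CPM and the CD34+ libraries 128, 86.5 and 325. The CD34- values were nearly alike, so the tumors differed almost entirely on the CD34+ side, and the ratio within a tumor ran from 5.04-fold in tumor 2 to 16.2-fold in tumor 3. The log2 fold change was -3.08 ± 0.47 (SE; limma-voom adjusted p = 0.0578) without and -3.10 ± 0.28 (adjusted p = 0.000522) with the block.

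Cd55b, a neighboring copy on the same chromosome, was far less abundant. It held 0.303, 0.177 and 1.10 CPM in CD34- libraries and 3.03, 2.33 and 11.3 in CD34+ libraries. With the block its log2 fold change was -3.39 ± 0.73 (SE, limma adjusted p = 0.0215), a call that was not kept without tumor 1 (adjusted p = 0.139) or tumor 2 (0.0964). Of all 50-base windows in Cd55 transcripts, 8.0% also occurred in Cd55b, and 23.0% of those of Cd55b occurred in Cd55, so that reads could be exchanged between them. Cd55 also overlaps the antisense gene Cd55os, and the counting was not stated to use strand. Of the other members, Cd34 overlaps Gm16897, which had 499 counts over all libraries, and Ly6a overlaps Gm28068.

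LY6C1 and SCA-1 are small GPI-anchored proteins of the Ly6 family, encoded near each other on chromosome 15 (Ly6a at 74994877 to 74998031, Ly6c1 at 75044018 to 75048920). Ly6c1 held 30.1, 78.7 and 97.9 CPM in CD34- libraries against 198, 335 and 657 in CD34+ libraries. The lowest CD34+ library was 2.02 times the highest CD34- library. Its ratio within a tumor was close to even, at 6.58-, 4.26- and 6.71-fold. Its log2 fold change was -2.51 ± 0.53 (SE; limma-voom adjusted p = 0.0967) without and -2.51 ± 0.16 (adjusted p = 8.63e-05) with the block.

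Ly6a, the most abundant member per length in CD34+ CAFs, remained abundant in the CD34- libraries. The CD34- libraries held 117, 379 and 337 CPM and the CD34+ libraries 442, 860 and 1123. The groups were separated by a factor of only 1.17, since the CD34+ library of tumor 1 (442) lay just above the CD34- library of tumor 2 (379). Within tumors the ratio was 3.79-, 2.27- and 3.33-fold. The log2 fold change was -1.56 ± 0.50 (SE; limma-voom adjusted p = 0.219) without and -1.62 ± 0.16 (adjusted p = 0.00072) with the block. For both Ly6 genes tumor 1 was the lowest of the 3 tumors in both fractions.

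Reads of Ly6 genes are partly interchangeable: 32.8% of the 50-base windows of Ly6c1 and 19.0% of those of Ly6a occurred in transcripts of other genes, against 0% for Thy1, Procr and Cd248. Ly6c1 shared most with Ly6c2 (21.5% of its windows). Ly6c2 held 1.12, 2.61 and 1.29 CPM in CD34- libraries and 13.1, 24.9 and 43.4 in CD34+ libraries, with a log2 fold change of -3.90 ± 0.49 (SE, limma with the block, adjusted p = 0.00227). How multi-mapping reads were handled was not stated, so how the counts divide between these genes is uncertain. A further Ly6 gene, Ly6a2, had 22 counts over all 6 libraries.

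PROCR binds protein C on the cell surface and aids its activation by thrombin and thrombomodulin, and it has been used as a marker of mammary and vascular stem cells. Procr (chromosome 2, 155751125 to 155755478) was the least abundant member. It held 15.9, 17.2 and 10.9 CPM in CD34- libraries and 27.7, 38.2 and 44.9 in CD34+ libraries. The groups did not overlap, and the ratio within a tumor was 1.75-, 2.22- and 4.12-fold. By limma-voom its log2 fold change was -1.35 ± 0.26 (SE; adjusted p = 0.0811) without and -1.31 ± 0.24 (adjusted p = 0.0111) with the block. Of the members called with the block, Procr was the 1 whose standard error the tumor term hardly altered.

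Endosialin is a C-type lectin-like receptor of mesenchymal cells and pericytes. Cd248 (chromosome 19, 5068078 to 5070640) held 193, 261 and 312 CPM in CD34- libraries and 239, 436 and 712 in CD34+ libraries. The CD34+ library of tumor 1 lay below the CD34- libraries of tumors 2 and 3, so the groups overlapped, although within each tumor the CD34- library was lower, by 1.24-, 1.67- and 2.28-fold. The log2 fold change was -0.71 ± 0.38 (SE; limma-voom adjusted p = 0.44) without and -0.75 ± 0.17 (adjusted p = 0.0247) with the block. With the block, edgeR gave an adjusted p = 0.091 and DESeq2 0.00196, which makes Cd248 the 1 call that limma and edgeR did not share.

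Podoplanin is a mucin-like protein of lymphatic endothelium and reticular fibroblasts that engages CLEC-2 on platelets. Pdpn (chromosome 4, 143267409 to 143299564) held 264, 321 and 205 CPM in CD34- libraries and 230, 413 and 355 in CD34+ libraries. The groups overlapped, and the CD34- library was the higher of the pair in tumor 1 and the lower in tumors 2 and 3. With the block, its log2 fold change was -0.32 (limma 95% interval -0.72 to 0.08, adjusted p = 0.329). In the same fit it was -0.57 without tumor 1 (adjusted p = 0.0463), -0.31 without tumor 2 (0.652) and -0.10 without tumor 3 (0.739).

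THY1, a GPI-anchored immunoglobulin-like protein that binds integrins, is a general fibroblast marker in the mouse. Thy1 (chromosome 9, 44043384 to 44048579) held 537, 736 and 502 CPM in CD34- libraries and 417, 732 and 695 in CD34+ libraries. The direction differed between tumors, with the CD34- library higher in tumor 1, nearly equal in tumor 2 and lower in tumor 3. The group means were 592 ± 126 and 615 ± 172 CPM (SD, n = 3). With the block, its log2 fold change was -0.03 (limma 95% interval -0.40 to 0.34, adjusted p = 0.935). The interval leaves out changes of the size estimated for Cd34, Cd55, Ly6c1, Ly6a, Procr and Cd248, but it does not show that the groups were equal.

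**Figure D2:**
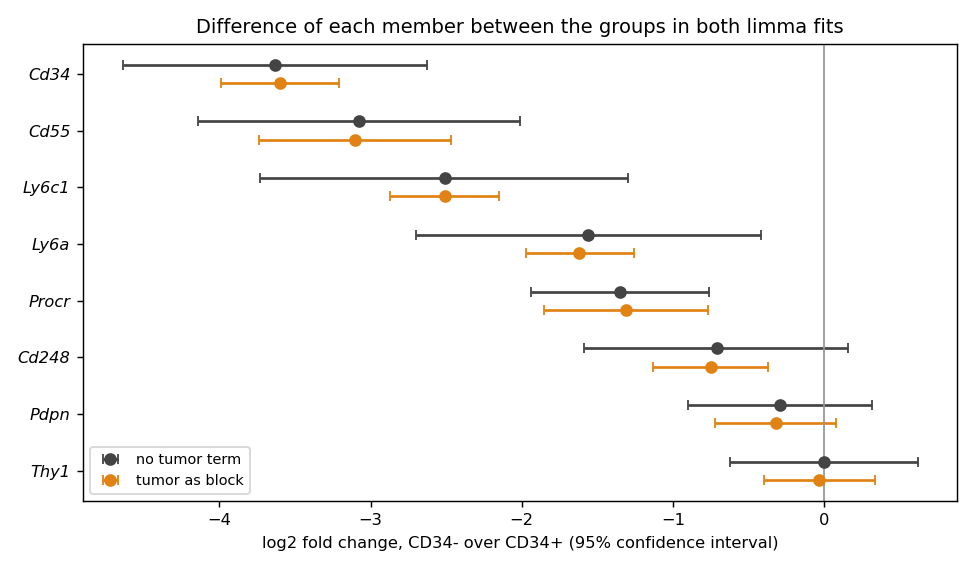
Log2 fold change of each member, CD34- over CD34+, with its 95% confidence interval, from limma-voom without a tumor term (gray) and with the tumor as a block (orange), 3 libraries per group. The estimates run from -3.63 for Cd34 to 0.00 for Thy1 without the block, and the block narrows every interval, least for Procr.

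The order of levels also differed between the groups. In RPKM, which divides by the length given for each gene, Ly6a led in CD34+ CAFs at 976 ± 415 (SD, n = 3), followed by Cd34 (362 ± 218), Thy1 (354 ± 99.3), Ly6c1 (241 ± 143), Pdpn (188 ± 52.7), Cd248 (180 ± 92.6), Cd55 (71.1 ± 50.4) and Procr (24.6 ± 5.75). Only the last neighbors, Cd55 and Procr, had ranges that did not overlap. Ly6a exceeded Cd34 in 3 of 3 libraries, by a mean log2 difference of 1.49 ± 0.68 (SD), whereas Cd34 exceeded Thy1 in 2 of 3. Without tumor 3 the CD34+ means of Cd34 and Cd55 were 237 and 42.4 RPKM, and Cd34 then lay below Thy1 (331).

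In CD34- CAFs Thy1 (341 ± 72.7 RPKM) and Ly6a (336 ± 170) came first and could not be ordered, since Thy1 was the higher in 1 of 3 libraries. Pdpn (149 ± 32.6) and Cd248 (99.6 ± 23.1) followed, and then, after a gap without overlap, Ly6c1 (41.8 ± 21.2) and Cd34 (28.3 ± 11.5). Procr (9.75 ± 2.22) and Cd55 (7.42 ± 0.581) were lowest, with Procr above Cd55 in 2 of 3 libraries, the reverse of their order in CD34+ CAFs. The CD34- libraries thus still held transcripts of all 8 members. Bulk libraries do not show which of the sorted cells held them, and the purity of the sort was not tested.

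**Figure D3:**
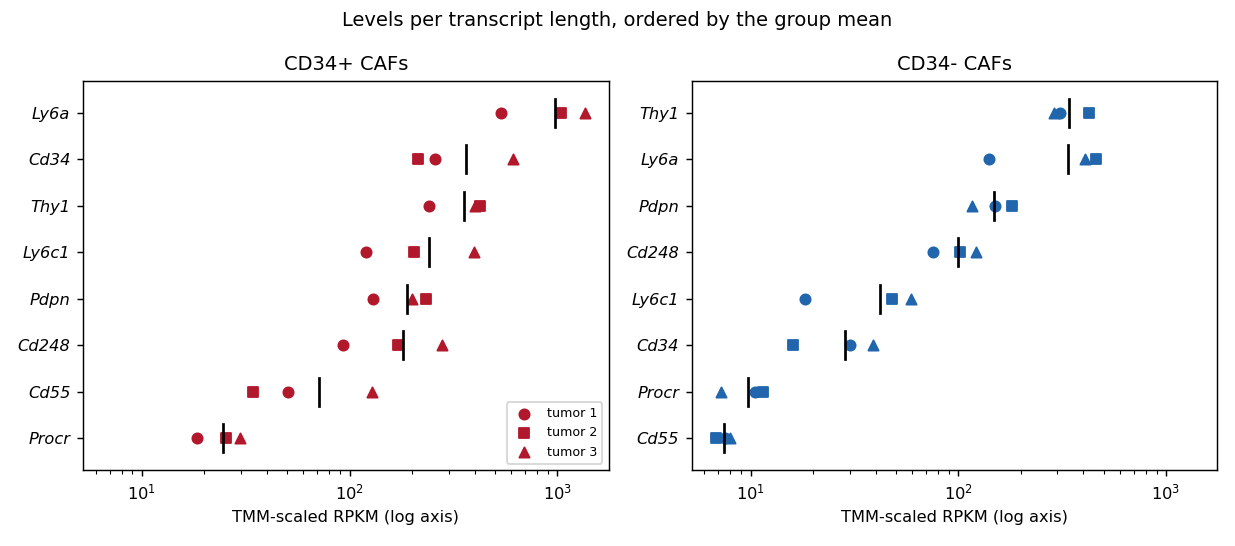
TMM-scaled RPKM (log axis) of each member in the 3 libraries of each group, ordered by the group mean (black bar). Thy1 has a mean of 354 in CD34+ and 341 in CD34- CAFs, while Cd55 drops from a mean of 71.1 to 7.42 and Cd34 from 362 to 28.3.

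Ratios to Thy1 within a library do not depend on the scaling between libraries. Per length, Cd34 was 0.508 to 1.53 times Thy1 in CD34+ libraries and 0.0377 to 0.134 times in CD34- libraries. The corresponding ratios were 0.0811 to 0.321 and 0.0160 to 0.0274 for Cd55, 0.482 to 0.996 and 0.0590 to 0.205 for Ly6c1, and 2.22 to 3.39 and 0.455 to 1.41 for Ly6a. Procr lay at 0.0602 to 0.0767 times Thy1 in CD34+ and 0.0250 to 0.0341 times in CD34- libraries. Those 5 ratios did not overlap between groups, although the direction for Cd34 was set by the sort. The share of all tested genes with such a separation from Thy1 was not computed. Pdpn was separated by a factor of only 1.04 (0.501 to 0.553 against 0.401 to 0.482), and Cd248 overlapped. These ratios show unequal change between members, not which of them stayed level.

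The members' levels and ratios also varied between tumors, and how often all tested genes ranked the same way was not counted. The CD34+ library of tumor 3 was the highest of the 3 for Cd34, Cd55, Ly6c1, Ly6a, Procr and Cd248, and the ratio within a tumor was largest in tumor 3 for Cd34, Cd55, Ly6c1, Procr, Cd248, Pdpn and Thy1. For Ly6a it was largest in tumor 1. With 1 pair per tumor, a difference between tumors could not be tested. When both libraries of tumor 3 were left out of the blocked fit, the same 6 members were called. In that fit 2019 of 15514 genes were called in either direction. The members' log2 fold changes were -3.42 for Cd34, -2.57 for Cd55, -2.40 for Ly6c1, -1.57 for Ly6a, -1.03 for Procr and -0.54 for Cd248.

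Other genes of the members' families and pathways were given by list, with the blocked limma fit, in which 8.57% of all genes were called in either direction. By limma-voom without the block no gene of these lists other than Cd34 was called. DESeq2 without the block called others, among them 3 Thy1 partners and 4 other stromal surface markers. Of the 2 other CD34 family sialomucins, Podxl and Podxl2, neither passed (adjusted p = 0.889 and 0.0525), although Podxl2 was called higher by limma without tumor 3 (0.79, adjusted p = 0.00754). Of 14 other Ly6-type genes tested out of 23 in the table, 1 was lower (Ly6c2) and 1 higher (Cd59a), and their median log2 fold change was 0.08 with and -0.06 without the block. Without tumor 3, Lypd1 was also called lower (-2.95, adjusted p = 0.0185 by limma with the block). Ly6e, the broadly expressed family member, held 215 to 329 CPM in CD34- and 177 to 320 in CD34+ libraries, with a log2 fold change of 0.10 ± 0.13 (SE, limma adjusted p = 0.689).

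The membrane complement regulators did not move one way. Of the 5 tested beside Cd55, Cd55b was lower and Cd59a, which blocks the terminal attack complex, was higher in CD34- CAFs. Cd59a held 84.5, 105 and 52.6 CPM in CD34- libraries and 45.7, 35.7 and 7.69 in CD34+ libraries, without overlap (log2 fold change 1.57 ± 0.26, SE, limma adjusted p = 0.00682 with the block). Cr1l, the rodent counterpart of such regulators, held 45.9 to 52.5 against 61.6 to 69.8 CPM, and its blocked adjusted p was 0.0867.

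The protein C and thrombin genes were split as well. Of 7 tested beside Procr, 1 was lower and 1 was higher. Thbd, or thrombomodulin, which works with PROCR in protein C activation, held 79.9, 62.1 and 96.4 CPM in CD34- and 205, 171 and 272 in CD34+ libraries (log2 fold change -1.44 ± 0.12, SE, limma adjusted p = 0.000419 with the block). F2r, the thrombin receptor PAR1, went the other way, at 1533, 1458 and 973 against 843, 564 and 163 CPM (1.61 ± 0.26, SE, adjusted p = 0.00704 by limma and 0.0502 by edgeR with the block). The groups did not overlap for either gene.

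Thbd is also a relative of endosialin in the group XIV lectins. Of the 6 tested genes of that list beside Cd248, 2 were lower, namely Thbd and the endosialin ligand Fn1 (fibronectin, log2 fold change -0.80 ± 0.17, SE, limma adjusted p = 0.0182). The Fn1 call was not kept by edgeR with the block (adjusted p = 0.0828) or by limma without tumor 2 (0.107). The list median without Cd248 was -0.17 with and -0.72 without the block. Cd93 and Clec14a, the endothelial members, did not pass (adjusted p = 0.593 and 0.0535 by limma), although Clec14a was called lower without tumor 3 (0.0348) and by DESeq2 (0.0141). Both were at most 9.04 CPM in any library. Mmrn2 was called higher without tumor 3 (log2 fold change 5.15, adjusted p = 0.018 by limma with the block), at no more than 1.21 CPM.

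Of 8 tested podoplanin partners, Cd44, the hyaluronan receptor, was lower (log2 fold change -0.81 ± 0.14, SE, limma adjusted p = 0.00853), and the ezrin, radixin and moesin genes did not pass. Of 9 tested Thy1 partners, the integrin chain Itgb3 (-0.99 ± 0.15, SE, adjusted p = 0.00505 by limma) and the kinase Fyn (-0.94 ± 0.14, adjusted p = 0.00507) were lower. The integrin chain Itgb5 was higher (1.42 ± 0.14, SE, limma adjusted p = 0.000851). Without tumor 3, Pag1 was also called higher (0.89, adjusted p = 0.0209 by limma with the block). Clec1b, which encodes CLEC-2, had a count of 0 in every library.

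Other surface markers of mesenchymal stromal cells were divided evenly. Of 19 tested, 3 were lower (Nt5e, Lepr and Cd44) and 3 higher (Mcam, Pdgfrb and Eng), with a median log2 fold change of 0.02 without the block. With the block, edgeR called neither Nt5e (adjusted p = 0.114) nor Lepr (0.132), and limma without tumor 3 did not call Lepr (0.131). Limma without tumor 3 called Cd200 lower (-1.45, adjusted p = 0.0017). Nt5e, or CD73, held 7.96, 4.03 and 7.26 CPM in CD34- and 9.47, 14.7 and 31.4 in CD34+ libraries. Mcam, or CD146, held 45.6, 37.7 and 34.6 against 16.4, 8.57 and 3.99 CPM (log2 fold change 2.15 ± 0.28, SE, limma adjusted p = 0.00251 with the block). Eng (CD105, 0.93 ± 0.15, SE, adjusted p = 0.00686 by limma) and Nt5e, which are used together with Thy1 to define such cells in culture, were called in opposite directions by limma, while Thy1 was not called.

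The 4 GPI-anchored members ranged from -3.10 (Cd55) to -0.03 (Thy1) in the blocked fit. None of the 28 tested genes of GPI anchor assembly and transfer was called by limma with or without the block, nor by edgeR or DESeq2 with it, and their median was 0.01. Ly6a and Ly6c1 respond to interferon in many cells. Of 20 interferon-induced genes, 1 was lower with the block, Oas1a (-1.79 ± 0.41, SE, limma adjusted p = 0.0268), and the list median was -0.31. That call was not kept by edgeR with the block (adjusted p = 0.0511) or by limma without tumor 1 (0.0696). DESeq2 with the block called 3 genes of the list lower, limma without tumor 2 called 4 lower, and limma without tumor 3 called 3 lower and 1 higher. Isg15 and Irf7 had adjusted p = 0.894 and 0.877.

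**Figure D4:**
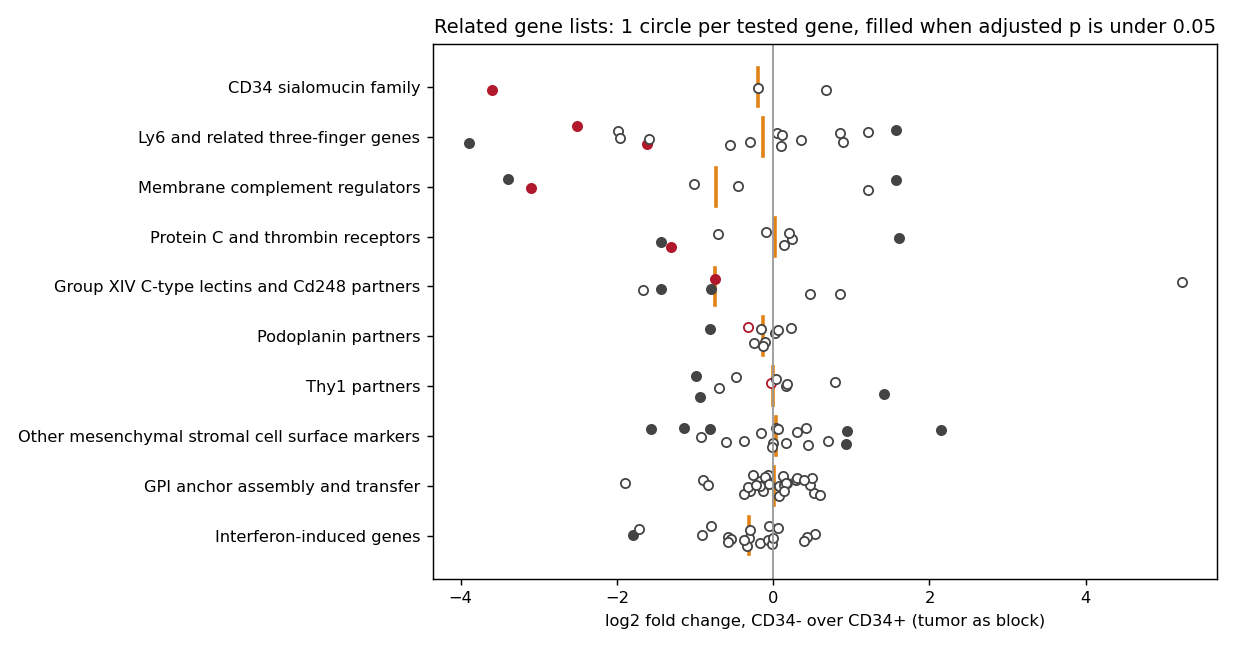
Log2 fold change, CD34- over CD34+, of each tested gene in 10 related lists (limma with the tumor as a block), with members in red, other genes in black, called genes filled and the list median as an orange bar. The called genes lie on both sides of 0 in 5 lists, and the 28 GPI anchor genes center on 0.01 with none called.

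As a description over 6 libraries that share the group difference, the genes whose log2 CPM was most like that of each member were found among 8936 tested genes. For Cd34 they were Thbd, Dpt and Arhgap20 (Pearson r = 0.997, 0.995 and 0.994), and 217 genes reached an r of 0.9. For Cd55 they were Ddr2, Fyn and Mcc (0.996, 0.992 and 0.991), for Ly6a Rras2, Efemp1 and C3 (0.997, 0.996 and 0.991), and for Ly6c1 Emc2, Anxa3 and Gda (0.991, 0.988 and 0.988). Efemp1 was itself at 75.3 CPM on average in CD34- and 758 in CD34+ libraries, and the adventitial gene Dpt at 348 and 1953.

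For Procr the nearest genes were C1rb, Cavin1 and Gas7 (r = 0.995, 0.993 and 0.990), for Cd248 Mterf4, Diaph2 and Cxcl12 (0.996, 0.995 and 0.993). For Thy1 they were Arpc1b and Kpna6 (0.996 and 0.994), and for Pdpn Dtymk, Nabp2 and Cul4a (0.992, 0.992 and 0.988), with log2 fold changes from -0.59 (Dtymk) to -0.05 (Arpc1b). Among the members, r was highest for Cd34 with Cd55 (0.98) and Ly6a with Ly6c1 (0.97), which could exchange reads, and Thy1 was closest to Pdpn (0.88). Cd34 with Thy1 gave -0.01.

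Markers of other cells were measured beside these results. The 7 fibroblast markers summed to 70332 to 91515 CPM (scaled by library totals, as for all sums here) in CD34- and 81056 to 99837 in CD34+ libraries, and Dcn and Lum were lower in CD34- CAFs with the block. The 13 endothelial markers, 11 of them tested, summed to 30.0 to 56.6 in CD34- and 64.0 to 136 in CD34+ libraries. Most of the latter was Tek, at 48.8 to 116 CPM and the only gene of the list called (log2 fold change -3.09 ± 0.35, SE, limma adjusted p = 0.00154 with the block). The median log2 fold change of the 11 tested genes lay on the other side of 0, at 1.37 without and 1.05 with the block by limma. The defining endothelial genes were low in both groups, with Pecam1 at 0.550 to 5.95 in CD34- and 1.73 to 12.9 in CD34+ libraries, and Cdh5 at 0.220 to 4.18 and 0 to 1.61. The lymphatic markers summed to at most 11.1 CPM.

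The 8 pericyte and mural markers summed to 225 to 279 CPM in CD34- and 112 to 200 in CD34+ libraries, with 3 genes higher (Mcam, Cspg4 and Notch3) and 2 lower (Kcnj8 and Abcc9). The part of endothelial and pericyte transcripts in the members' differences was not tested. Leukocyte RNA was scarce: Ptprc, which encodes CD45, was at most 0.481 CPM, and the T and NK cell markers summed to 1.29 to 3.79 in CD34- and 2.77 to 6.75 in CD34+ libraries. Macrophage and leukocyte markers summed to 12.6 to 17.5 and 6.53 to 15.8. Epithelial markers summed to 57.3 to 151 and 21.3 to 145, Schwann cell markers to 14.9 to 22.7 and 8.79 to 14.2, mesothelial markers to 1.81 to 5.44 and 0.221 to 8.22, and erythroid markers to 0.503 to 8.27 and 0.416 to 1.36. None of the tested genes in these last 4 lists, nor in the lymphatic, T and NK or macrophage lists, was called by limma with or without the block.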

How the data were processed

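The authors sequenced GFP+ CAFs sorted on CD34 from 3 tumors, aligned reads to GRCm38/mm10 and counted them per NCBI gene with featureCounts of Rsubread. The deposited values were raw counts, not normalized, with replicates kept apart. Strand and multi-mapping settings are not given in the sources used here. CPM and RPKM were computed here from those counts and the gene lengths of the table, with TMM scaling.

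Groups and tumor numbers came from the sample titles. After the tools named in the study's methods, filterByExpr (minimum count 10, chosen here), TMM and limma-voom compared CD34- with CD34+ libraries. Those methods mention no tumor term, so none was used in the main test, with Benjamini-Hochberg adjustment over 14855 genes at 0.05, two-sided. That test called 18 genes in either direction, fewer than the paper reports as significantly higher in CD34- CAFs alone. It is therefore not taken as the study's own fit, and it leaves out the pairing by tumor. With the tumor as a block, limma called 1273 genes. A negative log2 fold change means lower in CD34-. The tumor number pairs the libraries, because both fractions came from 1 tumor. Deviations from group means correlated at 0.373, 0.350 and 0.219 in tumors 1 to 3, so blocked values stand beside the main ones. edgeR quasi-likelihood, DESeq2, other scalings, filters, weights, thinning and leaving out libraries or tumors were alternatives. The tests ran in limma 3.58.1, DESeq2 1.42.0 and edgeR 4.0.16 under R 4.3.3 and were tried on simulated data.

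The 8 members, the 10 related and 10 marker lists and the alternatives were chosen with earlier results of these data known. The named genes were the members, the genes of these lists, and per member the 3 other tested genes with a symbol and a mean log2 CPM of at least 3 that had the highest Pearson r. Of the latter, 1 for Thy1 is not reported here. List genes singled out with values were chosen after their values were seen. RefSeq (GRCm38.p6) gave positions and promoters, and GENCODE vM21 transcripts gave the shared 50-base windows (either strand). Where a gene had several promoters, the 1 nearest its GENCODE start was used.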

Additional observations from a re-analysis of the deposited data

How the results depend on the processing

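Without a tumor term 1 of 8 members was called, and that was Cd34, the gene of the sort. The number was 6 with the tumor as a replicate block, 5 with edgeR and the block and 6 with DESeq2 and the block. It was 5 with DESeq2 alone, 2 with limma-trend, 2 with sample quality weights and 0 with edgeR alone. By limma without the block, 5 members had an unadjusted p under 0.05, as did 2128 of all 14855 genes. All genes called numbered 18 without a tumor term, 1273 with the block and 575 with edgeR and the block. DESeq2 called 1733 with the block and 698 alone. The number was 161 with sample quality weights, 32 with library totals alone, 25 with limma-trend and 9 with edgeR alone. Leaving out 1 library or 1 tumor without the block gave 0 to 86 genes and 0 to 3 members. Among these fits the call of Cd34 was kept only without the CD34+ library of tumor 1 or without the whole of tumor 1, where Ly6a and Ly6c1 were also called (adjusted p = 0.0409 and 0.0212 by limma). Leaving out tumor 1, 2 or 3 with the block gave 1134, 851 and 2019 genes and 7, 6 and 6 members. The log2 fold changes of Cd34, Ly6a, Ly6c1, Cd55, Procr, Cd248 and Pdpn were below 0 in each of the 24 alternatives.

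Thy1 stood at 0.0004 and turned to a negative value that was never called: -0.03 with the block, with edgeR and the block, with limma-trend and with library totals alone, -0.04 with DESeq2 and the block and after thinning, -0.05 with edgeR, -0.07 with DESeq2, -0.01 with RLE size factors and without a filter, and -0.0016 with symbols only. With sample quality weights it was 0.18. Leaving out libraries or tumors moved it between -0.29 and 0.23 without the block, and leaving out tumor 1, 2 or 3 with the block gave -0.23, -0.06 and 0.18. The cause was not tested. Depth gave each member at least 396 reads in each library, and thinning all libraries to the smallest total left 1 member called.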
